A study of Mus musculus with 2 samples.

Results

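DNA damage repair genes were compared between 2 populations of mouse blood stem and progenitor cells. The genes were 34 in number, a set named by symbol and grouped into 6 pathways: homologous recombination, the Fanconi pathway, end joining, mismatch repair, excision repair and the checkpoint. They were found on the arrays through the accession of each probe, among 20655 named genes in all. The cells were LSK cells, sorted as lacking markers of mature lineages and bearing both Sca-1 and c-Kit. One sample came from bone marrow of wild type C57BL/6 mice at 8 weeks of age, the other from wild type fetal liver at embryonic stage E14.5, and neither had been transplanted. No strain was used here for the fetal liver, and the sources used here do not give the number of animals behind each sample. Each group had 1 single-colour Agilent array. Without replicates, no difference here could be set against a spread between samples, and no p-value was computed. Tissue, age and slide differ together and cannot be told apart.

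Cells repair broken or altered DNA by several routes. Homologous recombination copies an intact sister strand and is used mainly while DNA is being replicated, the Fanconi pathway opens crosslinks between strands, and end joining rejoins breaks without a template. Mismatch repair corrects replication errors, and excision repair cuts out damaged bases or bulky lesions. The checkpoint kinases detect damage and halt the cell cycle. Inherited loss of Fanconi genes causes bone marrow failure in people.

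Signals are given as multiples of the array's own 75th percentile, which lay at 178.9 for the marrow array and 134.0 for the fetal array. Differences are log2 scaled signal of fetal liver minus bone marrow. Each ± gives the technical error reported by the feature extraction software, with a median of 0.20 over genes, unless said to be over spots. It was nearly the same for all bright genes and is not a measured spread. Repeated spots gave a smaller median SD of 0.09. Signals of different probes are not comparable as amounts of RNA. Genes flagged as well above background by 1 array or both counted as measured, 13372 in all. Kit, Ly6a (Sca-1), Cd34 and Flt3 were above background on both arrays, while Cd8a, a gene of mature T cells, was not well above background on either. The arrays were not matched on all of these. Ly6a differed by -2.28 ± 0.20 and Flt3 by -0.89 ± 0.20, while Kit was at 0.005 and Cd34 at -0.13. The part of such differences in those of the repair genes was not tested. Cd3e, Cd4, Itgam and Ptprc, also listed as genes of mature lineages, were above background on both. In these bulk samples, fewer cells of a type and less RNA per cell cannot be told apart.

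Most repair genes lay slightly higher in fetal liver, by less than 2-fold. The choice of scaling, which moves all genes together, can remove a direction of this size. Of the 34 genes 33 were measured, 31 of them on both arrays. The genes measured had a median difference of 0.31, beside 0.11 for all genes measured. Under scaling by the spike-in controls, which lowers differences by 0.34, these medians were -0.027 and -0.23. The difference was positive in 28 of 33, while 57.7% of all genes were positive. Under spike-in scaling it was positive in 16 of 33, beside 32.4% of all genes. Of the 33 genes, 27 lay above the median of all genes. Spike-in scaling moves all genes together, so the same count under it adds nothing. No spread between samples is known for this count.

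Few of the repair genes differed at least 2-fold. In fetal liver 3 of 33 were 2-fold or more higher, namely Exo1, Blm and Lig4, beside 6.74% of all genes. In bone marrow 0 of 33 were, beside 8.17% of all genes. At 1.5-fold, the count was 8 of 33 for fetal liver (17.6% of all genes) and 1 for bone marrow (14.9% of all genes). Those 8 were Exo1, Blm, Rad50, Palb2, Fancd2, Xrcc5, Lig4 and Ercc2, and the 1 was Fancg. Lig4 and Fancg were above background on 1 array only, so Lig4 is given as a bound and Fancg as a ratio to a dim signal. Each was measured through the array on which it was higher. The shares of 9.09% past 2-fold and 24.2% past 1.5-fold in fetal liver were near the background. Under spike-in scaling, 2 of 33 (Exo1 and Lig4) passed 2-fold in fetal liver, beside 3.82% of all genes, and 1 (Fancg) passed it in bone marrow, beside 13.2%. The counts at 1.5-fold were then 4 for fetal liver, beside 7.85% of all genes, and 3 for bone marrow, beside 27%.

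Homologous recombination genes were higher in fetal liver in 8 of 8 measured, with a median difference of 0.55, beside 57.7% of all genes. Under spike-in scaling 6 of 8 were higher, with a median of 0.22, beside 32.4% of all genes. Exo1, an exonuclease that trims the ends of breaks and also serves mismatch repair, had scaled signals of 4.54 (bone marrow) and 14.4 (fetal liver). That was 3.17-fold (1.66 ± 0.20), and 2.44% of all genes measured had a larger positive difference. Blm, a helicase that untangles recombination intermediates, had 1.94 and 4.46, a 2.30-fold difference (1.20 ± 0.20), with 4.65% of genes above it. Both exceeded the technical error several times over. Under spike-in scaling they were at 1.33 and 0.87, so that Blm fell short of 2-fold, while Nbn and Rad54l turned slightly negative, at -0.027 and -0.13.

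The MRN complex, which binds broken ends first, has 3 subunits in the set. Rad50, its long coiled-coil ATPase, had scaled signals of 3.98 (bone marrow) and 6.36 (fetal liver) (0.68 ± 0.20). A second Rad50 probe gave a smaller difference of 0.34. Mre11a, the nuclease, had 9.73 and 12.4 (0.35 ± 0.20), and Nbn, the subunit that recruits the kinase ATM, had 0.822 and 1.02 (0.31 ± 0.21). Rad50 exceeded Nbn by 0.37 ± 0.29 and Mre11a by 0.32 ± 0.29, little more than the technical error. By this error the subunits were not clearly separated from each other.

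Of the genes around BRCA2, Palb2 and Brca2 lay close together. Brca2, which loads the strand exchange protein onto DNA, had scaled signals of 2.59 (bone marrow) and 3.64 (fetal liver) (0.49 ± 0.20). Palb2, which joins BRCA2 to BRCA1, had 0.295 and 0.452 (0.61 ± 0.22) by one probe and a difference of 0.81 ± 0.29 by the other. Rad54l, a motor protein that acts on the invading strand, was the lowest of the group, at 3.39 and 3.91 (0.21 ± 0.20). The difference between Palb2 and Brca2 was 0.12 ± 0.30, within the technical error. Brca1 had a single probe, with raw signals of 6.35 (bone marrow) and 4.25 (fetal liver), not well above background on either array. Nothing can be said of its direction here.

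Fanconi genes were higher in fetal liver in 5 of 6, with a median of 0.25, beside 57.7% of all genes. Under spike-in scaling 2 of 6 were higher, with a median of -0.084, near the 32.4% of all genes. Fancd2, which is ubiquitinated at a crosslink and marks it for repair, went from 0.352 in bone marrow to 0.642 in fetal liver, 1.82-fold (0.87 ± 0.22). Its partner Fanci had 3.94 and 4.81 (0.29 ± 0.20), lower than Fancd2 by 0.58 ± 0.30. Among subunits of the core complex that attaches the ubiquitin, Fanca had 4.83 and 6.41 (0.41 ± 0.20). Fancl, the ubiquitin ligase itself, had 6.16 and 7.15 (0.22 ± 0.20), and Fancc had 1.37 and 1.58 (0.21 ± 0.20). Fanci, Fancl and Fancc turned negative under spike-in scaling, at -0.048, -0.12 and -0.13.

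Fancg, another core subunit, went the other way. Its raw signal was 25.8 in bone marrow and 9.94 in fetal liver, the latter not well above background. Bone marrow was 1.94-fold higher (-0.96 ± 0.46). The dim signal lay above the lowest signal well above background (9.82), so this is a plain ratio and not a bound. Under spike-in scaling the difference passed 2-fold, at -1.29 on the log2 scale, and with normexp background correction it had no value. It rests on 1 dim probe. Fancc, measured by 2 probes, differed by 0.21 at the brighter and by 0.96 ± 0.27 at the dimmer, which is annotated to another transcript accession of the gene.

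**Figure D1:**
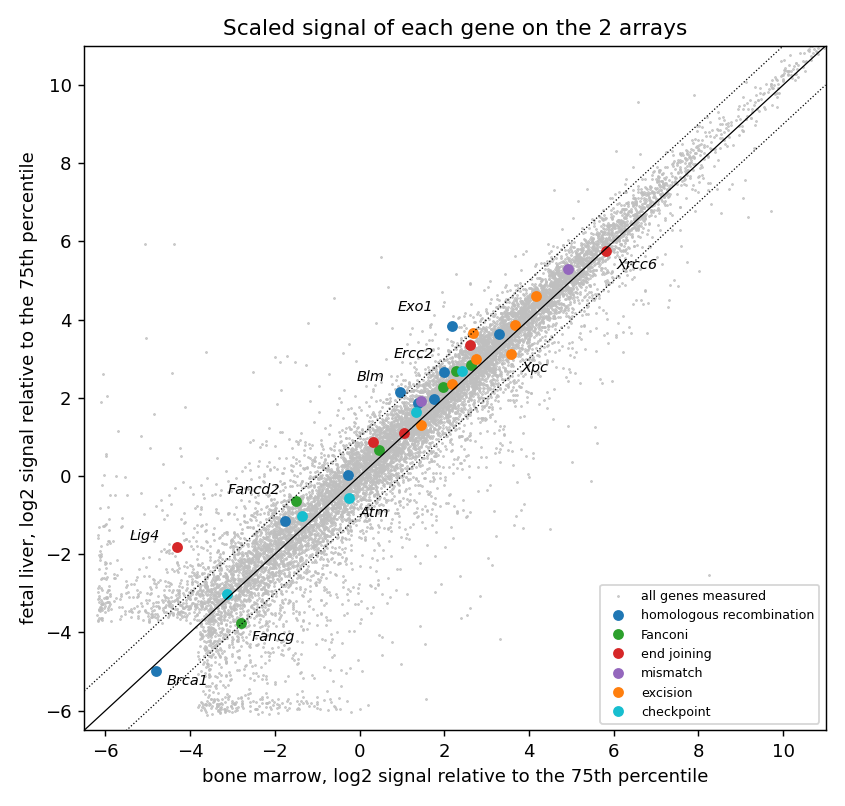
Scaled log2 signal of each gene in bone marrow (x axis) and fetal liver (y axis), both relative to the array's 75th percentile. Grey points are the 13372 genes measured and coloured points the repair genes, with dotted lines at 2-fold. Exo1, Blm and Lig4 lie above the upper dotted line, most repair genes follow the diagonal closely, and Brca1, Lig4 and Fancg lie in the dim region. Lig4 is drawn at its dim signal as read, a difference of 2.51 in place of the bound of 2.04.

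End joining genes were higher in fetal liver in 4 of 5, with a median of 0.55, beside 57.7% of all genes. Under spike-in scaling 3 of 5 were higher, with a median of 0.22, beside 32.4% of all genes. Lig4, the ligase that seals the ends, had raw signals of 8.96 in bone marrow, not well above background, and 38.2 in fetal liver. The fetal liver signal was at least 4.13-fold higher. The bound was 2.04 as log2, and 0.80 with normexp correction, which adds 50 to each signal and so shrinks folds of dim genes. It rests on 1 dim probe. Without the genes dim on 1 array the median of this group was 0.31. Xrcc4, the partner that stabilises LIG4, had scaled signals of 2.05 and 2.14 (0.06 ± 0.20), and its sign turned under spike-in scaling (-0.28), normexp (-0.14) and scaling by probes detected on both arrays (-0.02).

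The Ku heterodimer, which threads onto broken ends, had unequal subunits. Xrcc5, encoding Ku80, had scaled signals of 6.08 (bone marrow) and 10.2 (fetal liver) (0.74 ± 0.20). Xrcc6, encoding Ku70, had 56.04 and 53.8 (-0.06 ± 0.20). The difference between them was 0.80 ± 0.29, a difference that no rescaling of a whole array changes. Each gene has a single probe here, so no other probe bears on it.

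Prkdc, the catalytic subunit of the kinase that Ku recruits, was printed as 10 spots. Its spots ranged from 205.2 to 234.1 in bone marrow and from 230.7 to 265.4 in fetal liver as raw signals. After scaling, the spots of the 2 arrays did not overlap, and the mean log2 values differed by 0.55 ± 0.03 (SE over spots). Under spike-in scaling the difference was 0.22. The spot error is technical and says nothing about the spread between animals.

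Mismatch repair was represented by Msh6 and Pms2, both higher in fetal liver, also under spike-in scaling, where their median of 0.42 became 0.088. Msh6, which recognises single base mismatches, had scaled signals of 30.1 and 39.0 (0.37 ± 0.20). Pms2, the endonuclease subunit, had 2.75 and 3.81 (0.47 ± 0.20), with 0.15 ± 0.21 at its other probe.

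Excision repair genes had the lowest median of the 6 groups, 0.19, with 5 of 7 higher in fetal liver, beside 57.7% of all genes. Under spike-in scaling the median was -0.15 and 2 of 7 were higher, near the 32.4% of all genes. Ercc2, the XPD helicase that opens DNA around a lesion and is part of transcription factor TFIIH, had scaled signals of 6.36 (bone marrow) and 12.7 (fetal liver). That was 1.996-fold (0.997 ± 0.20), just short of 2-fold, and 0.66 under spike-in scaling. Xpc, which detects distorting lesions, was lower in fetal liver, with 11.8 and 8.77 (-0.43 ± 0.20). Ercc2 exceeded Xpc by 1.43 ± 0.29, several times the technical error.

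The remaining excision genes ranged from -0.14 to 0.44. Ercc1, part of the nuclease that cuts beside a lesion, had 2.75 and 2.49 (-0.14 ± 0.20), and Xpa, which verifies the lesion, had 12.8 and 14.46 (0.18 ± 0.20), the same to within 0.02 at its other probe. Of the base excision genes, Xrcc1, the scaffold of single-strand break repair, had 17.8 and 24.1 (0.44 ± 0.20). Parp1, the sensor of strand breaks, had 6.77 and 7.92 (0.23 ± 0.20). Ogg1, the glycosylase that removes oxidised guanine, had 4.52 and 5.16 (0.19 ± 0.20). The differences of Parp1, Ogg1 and Xpa turned negative under spike-in scaling, at -0.11, -0.15 and -0.15.

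Checkpoint genes were higher in fetal liver in 4 of 5, with a median of 0.27, beside 57.7% of all genes. Under spike-in scaling 1 of 5 was higher, with a median of -0.064, beside 32.4% of all genes. Atm, the kinase that responds to double-strand breaks, was the exception by the percentile scaling. It had scaled signals of 0.837 (bone marrow) and 0.672 (fetal liver) (-0.32 ± 0.21), and its other probe, printed as 10 spots, gave -0.37 ± 0.23. The raw spots of that probe ranged from 65.03 to 80.4 in bone marrow and from 33.7 to 53.9 in fetal liver. After scaling, the lowest bone marrow spots and the highest fetal liver spots overlapped, while the mean log2 values differed by -0.38 ± 0.08 (SE over spots).

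**Figure D2:**
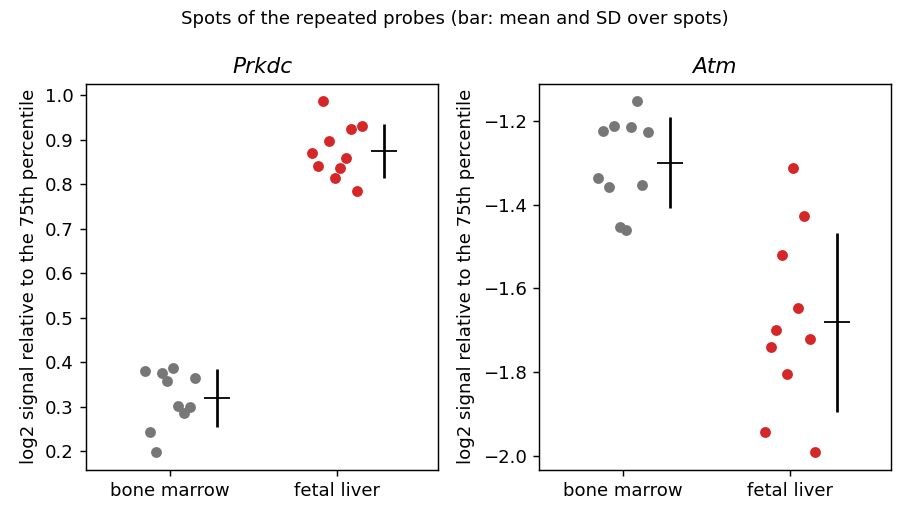
Scaled log2 signal (y axis) of each of the 10 spots of the repeated probes of Prkdc and Atm on the bone marrow and fetal liver arrays, with mean and SD over spots. The Prkdc spots of the arrays do not overlap, and the Atm spots overlap at the edges of their ranges.

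Atr, the kinase of stalled replication forks, had scaled signals of 5.31 (bone marrow) and 6.40 (fetal liver) (0.27 ± 0.20), above Atm by 0.59 ± 0.29. Chek2, the kinase downstream of ATM, had 0.391 and 0.494 (0.34 ± 0.22), above Atm by 0.66 ± 0.30. Chek1, the kinase downstream of ATR, was dim, at 0.114 and 0.124 (0.12 ± 0.36). Trp53bp1, which protects broken ends from resection, had 2.53 and 3.09 (0.29 ± 0.20) and 1.01 ± 0.31 at a second, dim probe. Of this group Atm alone was negative by the percentile scaling, while under spike-in scaling Chek2 (0.0041) was the 1 gene not negative.

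Further repair genes were taken from a list of 127, of which 124 were measured. They gave a median of 0.30, close to the 0.31 of the 33 genes, with 93 of 124 positive, beside 57.7% of all genes. Under spike-in scaling the median was -0.04 and 55 were positive, beside 32.4% of all genes. Past 2-fold were 9 of 124 for fetal liver, near the 6.74% of all genes, and 1 for bone marrow, beside 8.17%. Under spike-in scaling these counts were 4 and 3, beside 3.82% and 13.2%. By pathway the medians were 0.31 for recombination, 0.28 for Fanconi, 0.35 for end joining, 0.35 for mismatch, 0.25 for excision, 0.37 for checkpoint and 0.12 for translesion synthesis and direct reversal. Under spike-in scaling they ranged from -0.22 for translesion and direct reversal to 0.04 for checkpoint.

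Among these, Eme1, the partner of the nuclease MUS81, had scaled signals of 1.84 (bone marrow) and 5.86 (fetal liver) (1.67 ± 0.20), whereas Mus81 itself was at -0.10. Gen1, a Holliday junction resolvase, had 0.179 and 0.569 (1.67 ± 0.24). Dna2, a nuclease and helicase of end resection, was at 1.02 and Fignl1, a factor that removes the strand exchange protein, at 1.08. Of the recombination list, 4 of 33 passed 2-fold for fetal liver and 0 for bone marrow, beside 6.74% and 8.17% of all genes. Under spike-in scaling 2 and 0 did, beside 3.82% and 13.2%. Mus81 was named after its value was seen.

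In the Fanconi list Fancb, a core subunit, was at 1.23 and Faap24, a DNA-binding partner of the core complex, at 1.31. In the end joining list Polm, a polymerase that fills gaps at joined ends, had scaled signals of 0.205 and 0.918, a 4.48-fold difference (2.16 ± 0.24). Pms1, of the mismatch list, was at 1.03. In the excision list Smug1, a glycosylase that removes uracil, was 3.38-fold higher in fetal liver (1.76 ± 0.21), and Neil2, a glycosylase of oxidised bases, was 2.83-fold higher in bone marrow (-1.50 ± 0.25). By the percentile scaling Neil2 was the 1 further repair gene past 2-fold on the bone marrow side, against 3 genes under spike-in scaling.

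**Figure D3:**
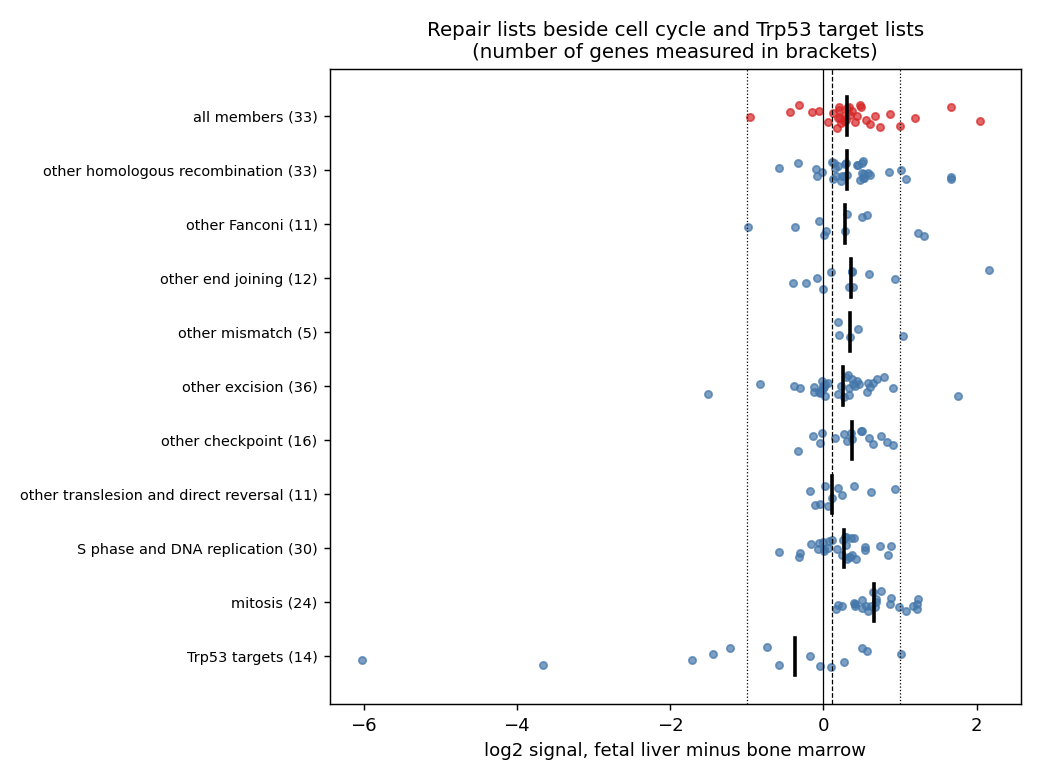
Log2 difference (x axis) of each measured gene in the 33 repair genes (red), the further repair lists and the S phase, mitosis and Trp53 target lists (blue), with black bars at the median and the number of genes measured in brackets. The repair genes have a median of 0.31, S phase genes 0.27, mitosis genes 0.66 and Trp53 targets -0.38. Under spike-in scaling these were -0.027, -0.06, 0.32 and -0.71.

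The repair genes lay beside the S phase genes and below the mitosis genes. Replication genes such as the MCM helicase subunits had a median of 0.27 with 23 of 30 positive, and 11 of 30 under spike-in scaling. Mitosis genes had a median of 0.66 with 24 of 24 positive, and 21 of 24 under spike-in scaling. Of all genes 57.7% were positive, and 32.4% under spike-in scaling. No mitosis gene was negative by the percentile scaling, and 5 of 24 passed 2-fold for fetal liver, against 3 of the 33 repair genes and 6.74% of all genes. Under spike-in scaling 0 of 24 mitosis genes and 2 of 33 repair genes passed 2-fold, beside 3.82% of all genes. Of those repair genes Lig4 was a bound, measured through the fetal liver array alone. The mitosis median stayed above that of the repair genes, at 0.32 against -0.027. These lists are described side by side, and with 1 array per group the difference between them was not tested.

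Targets of Trp53, the transcription factor that damage kinases activate, had a median of -0.38. Of 14 measured, 5 passed 2-fold for bone marrow and 1 for fetal liver, beside 8.17% and 6.74% of all genes. Under spike-in scaling 6 and 0 did, beside 13.2% and 3.82%. Cdkn1a, the cell cycle inhibitor p21, had scaled signals of 30.5 (bone marrow) and 2.41 (fetal liver) (-3.66 ± 0.20). Gdf15, a stress cytokine, was 65.1-fold higher in bone marrow (-6.02 ± 0.37). Its raw signal of 10.9 in fetal liver was not well above background, so this is a ratio to a dim signal. Zmat3, an RNA-binding protein, went the other way at 1.02. Trp53 itself was at 0.26, and it was named after its value was seen.

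Genes listed for neutrophils and erythroid cells differed between the samples too. Of 13 neutrophil genes measured 8 passed 2-fold for bone marrow, beside 8.17% of all genes. Their summed scaled signals were 865.2 (bone marrow) and 680.8 (fetal liver), of which Mpo alone made up 657.1 and 544.7. Of 10 erythroid genes 5 passed 2-fold for fetal liver, beside 6.74% of all genes. Their sums were 102.9 and 773.5, of which Hbb-bt alone made up 94.9 and 754.9. Under spike-in scaling the counts past 2-fold were again 8 and 5, beside 13.2% and 3.82%. Each sum is mostly the signal of that 1 probe. Whether these signals come from other cells or from the LSK cells themselves was not tested, nor was their part in the repair gene differences.

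Promoters of the repair genes were read for short motifs, since most of the genes shared a direction. Promoter sequences, 250 bases before to 50 after each annotated start, came from RefSeq on build GRCm38.p6 and were found for 28 of the 34 genes, as 30 promoters. None was used for Exo1, Fancd2, Nbn, Prkdc, Rad50 and Xpc. The motifs searched on both strands were 4 words bound by E2F factors, which drive S phase genes (TTTCCCGC, TTTCGCGC, TTTGCCGC and TTTGGCGC), the CHR word of mitotic genes (TTTGAA) and CCAAT. The GC box GGGCGG, which can share letters with an E2F word, was searched too. An E2F word stood in 5 of 30 promoters (16.7%), beside 3.74% of the promoters of all genes measured and 2.26% of all promoters in the table. They belonged to Brca2, Chek2, Fancg, Msh6 and Xrcc6. The Msh6 word lies after the start. The stretches that carry the other 4 are shown because they place the word, in capitals, in its surroundings, each read along the strand of the gene and ending before the annotated start.
Brca2, chr5:150522413-150522500, plus strand: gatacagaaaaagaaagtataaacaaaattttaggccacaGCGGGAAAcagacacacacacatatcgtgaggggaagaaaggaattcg
Chek2, chr5:110839791-110839878, plus strand: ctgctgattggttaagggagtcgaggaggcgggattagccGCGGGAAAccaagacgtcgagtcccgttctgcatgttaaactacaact
Fancg, chr4:43010306-43010393, minus strand: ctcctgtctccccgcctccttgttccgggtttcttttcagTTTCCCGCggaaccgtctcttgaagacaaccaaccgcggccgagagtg
Xrcc6, chr15:82016283-82016368, plus strand: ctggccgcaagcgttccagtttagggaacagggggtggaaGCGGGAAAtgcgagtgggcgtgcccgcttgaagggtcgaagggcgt

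All 4 words are the same motif, TTTCCCGC, which reads GCGGGAAA on the other strand in Brca2, Chek2 and Xrcc6. The genes with an E2F word did not share a larger difference. Their median was 0.34, with values from -0.96 for Fancg to 0.49 for Brca2, while the 22 measured genes whose promoters lacked it had a median of 0.28. The CHR word stood in 0 of the 30 promoters, beside 12.4% for all genes measured and 68.2% of the promoters of the mitosis list. E2F words stood in 45.8% of the promoters of the S phase list, 4.55% of those of the mitosis list and 9.40% of those of the further repair genes. CCAAT stood in 60.0% of the repair gene promoters, beside 37.8% for all genes measured. Its share was 70.8% for the S phase list, 77.3% for the mitosis list and 51.3% for the further repair genes. The GC box stood in 63.3% of the repair gene promoters, near the 59.0% for all genes measured. These are matches of letters in a window, and no binding was measured.

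**Figure D4:**
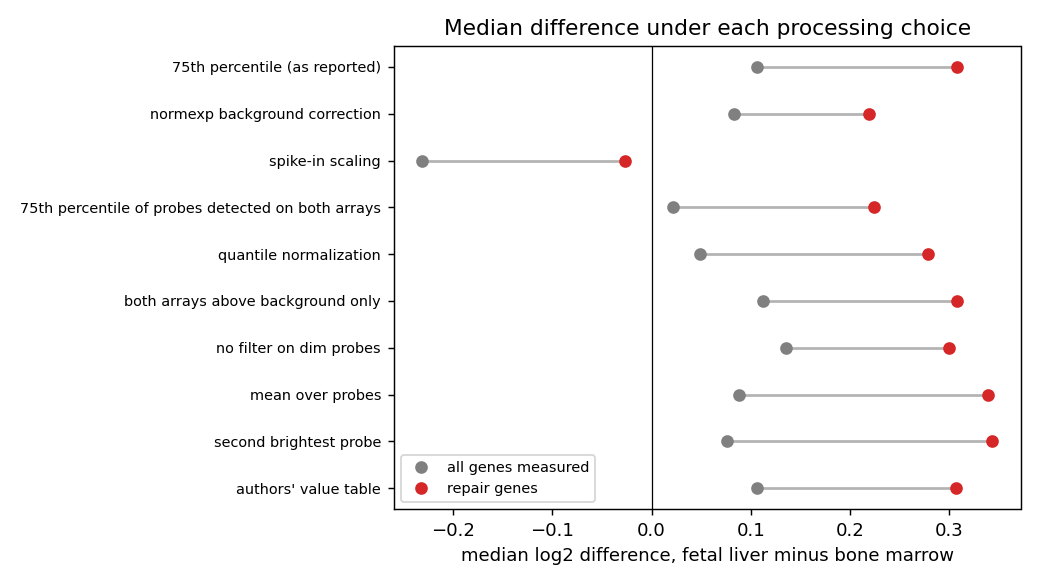
Median log2 difference (x axis) of the repair genes (red) and of all genes measured (grey) under the reported processing and each of 9 alternatives (y axis). The repair genes lie to the right of all genes in each, by 0.14 to 0.27. Spike-in scaling lowers both alike and puts both medians below 0.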

How the data were processed

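Total RNA of sorted LSK cells (20 ng) was amplified and labelled with Cy3, per the labels' protocols. The deposited intensity values come from Agilent Feature Extraction 10.7.1.1, with background subtracted within each array, per the file headers. Flags of 0 or 1 per spot were also used. The authors' deposited value table holds a linear ratio, the signal divided by 1 constant per array (178.6 and 133.9), within 0.1% for 99.99% of single-spot probes. The sources used here do not say how these were chosen. Column medians were 0.0589 and 0.0604, so the table is linear and not centred by gene, with the direction of the scanner files.

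Control spots and 137 and 122 outlier spots were left out, spots of a probe were averaged, and each array was divided by its 75th percentile. Of 62976 spots per array none was saturated. Probes well above background made up 47.4% (bone marrow) and 46.4% (fetal liver). The number of arrays limits the precision. Single-spot differences of 224 repeated probes had a median SD of 0.09. Accessions gave 27226 of 55664 probes a symbol (reference GRCm38.p6, used for names only since the design is on mm9). A gene took its brightest probe. For a gene dim on 1 array, the dim signal was set no lower than the lowest signal well above background (12.4 or 9.82). Where the dim signal lay below that value the difference is a bound, and otherwise it is the plain ratio. Of 10 spike-in controls 8 were used. Genes were counted by fold, with no test. The code recovered known changes in simulated data, all of them large and in bright genes. Recovery of smaller differences or of bounds was not checked. The genes, lists and motifs were chosen with earlier results of these data known. Genes named were all members and, of other lists, up to 4 at least 2-fold different. Normexp (limma 3.58.1, offset 50) used the median spot signal, since no mean signal column was used. Some marker genes are not reported here.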

Additional observations from a re-analysis of the deposited data

How the results depend on the processing

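Across 9 alternatives no difference past 2-fold changed direction. Scaling by the spike-in controls mattered most: 12 of 33 differences changed sign, the median was -0.027, and the pathway medians were 0.22 (recombination), -0.084 (Fanconi), 0.22 (end joining), 0.088 (mismatch), -0.15 (excision) and -0.064 (checkpoint). It left 16 positive, 4 past 1.5-fold for fetal liver, 3 for bone marrow and 1 (Fancg) past 2-fold for bone marrow. Of all calls past 2-fold, 45.2% were higher in fetal liver by the percentile scaling, 22.5% by spike-in scaling (509 and 1757 genes). Normexp left 5 genes past 1.5-fold for fetal liver and 0 for bone marrow, with 379 and 606 of all genes past 2-fold against 901 and 1093. It adds 50 to each signal, which shrinks folds of dim genes, so these counts do not show background correction alone. Scaling by probes detected on both arrays put 1 gene, Fancg, past 2-fold for bone marrow. With genes above background on both arrays alone, 0 passed 1.5-fold for bone marrow and the end joining median was 0.31, since Lig4 and Fancg drop out. The remaining settings moved 0 to 4 single genes beyond the technical error; the second brightest probe moved Fancc, Trp53bp1, Rad50 and Pms2. No paired analysis was possible because each group had 1 array, and leaving out a replicate was not possible for the same reason. Dim signal limits Brca1, Lig4, Fancg and Chek1.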
